A study of Mus musculus with 4 samples.

Results

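The genes described here are nuclear receptor genes of mouse liver, a fixed list of 37 gene symbols out of 37074 gene names on the array. They were chosen by membership of the gene family, with earlier results of these data known. The list does not cover the whole family, and the nuclear receptors Nr1d1 and Nr1d2 are outside it. The list holds the sensors of foreign chemicals and bile acids, the oxysterol, fatty acid, retinoid, thyroid hormone and steroid receptors, the NR4A receptors, and the receptors that help to keep hepatocytes differentiated. The study addressed how the liver responds to aristolochic acid type I (AAI), a plant nitrophenanthrene compound that damages the kidney and that the liver metabolises. Livers came from wild-type C57BL/6 mice of both sexes, labelled as 6 weeks old. Female mice received 5 mg/kg/day of AAI and male mice 2 mg/kg/day, by intraperitoneal injection on 5 days of each week over 3 weeks, and control mice of each sex received corn oil. Total liver RNA of 5 mice was mixed in equal amounts in each of the 4 groups, and each mixture was hybridised to 1 Cy3-labelled Agilent whole-genome array. There is therefore 1 array per group, no measure of the spread between mice, and no test of any difference. Sex and AAI dose differ together between the female and the male treated groups and cannot be told apart.

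Nuclear receptors are transcription factors that bind small fat-soluble ligands such as hormones, bile acids, oxysterols, fatty acids or foreign chemicals. Many of them bind DNA as a heterodimer with a retinoid X receptor, exchange corepressors for coactivators when a ligand is present, and then raise transcription of their target genes. In the liver, PXR (Nr1i2) and CAR (Nr1i3) control enzymes that clear drugs, FXR (Nr1h4) and its partner SHP (Nr0b2) control bile acid synthesis, PPARalpha (Ppara) controls fatty acid oxidation, and HNF4alpha (Hnf4a) maintains hepatocyte genes. The NR4A receptors differ from these in being immediate early genes, which cells switch on rapidly after hormones, stress and cAMP signals, and in needing no known ligand.

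The list was measured almost completely. It had 85 probes, 60-base DNA oligonucleotides each matched to one stretch of a transcript, and 28 members had 2 or more of them. All 66 probe annotations that carried a RefSeq accession matched the member's own symbol. In 36 of 37 members the brightest probe was well above background on all 4 arrays, and Rorb, a receptor of neurons and retina, was not well above background on any array. Values below are normalised log2 signals of the brightest probe, and a log2 ratio is AAI minus corn oil within a sex. The scanner's own error estimate for a log2 ratio had a median of ±0.20 in each comparison, and it covers the spot measurement only. A second measure of technical spread is the SD of log2 ratios between probes of the same gene, whose median over all genes with several probes was 0.25 in females, 0.24 in males and 0.23 between the corn oil pools.

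Few of the listed genes were far apart between AAI and corn oil, as was also true of all genes. In females 2 members, Nr4a1 and Nr1i2, were at least 2-fold lower in the AAI pool and none was at least 2-fold higher, against 3.09% of 31682 genes lower and 1.37% higher. In males Vdr was at least 2-fold lower and Nr4a1 at least 2-fold higher, against 4.59% of 30539 genes lower and 3.51% higher. In both sexes this was 5.56% of the 36 members compared, beside 4.46% of all genes in females and 8.10% in males. Their median log2 ratio was -0.04 in females and 0.04 in males, where the median of all genes was 0.04 and 0.02. The median size of a member's log2 ratio was 0.26 in both sexes, and that of all genes was 0.28 in females and 0.27 in males. The ratio was smaller than the SD between probes of a gene in 18 members in females and in 16 members in males.

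**Figure D1:**
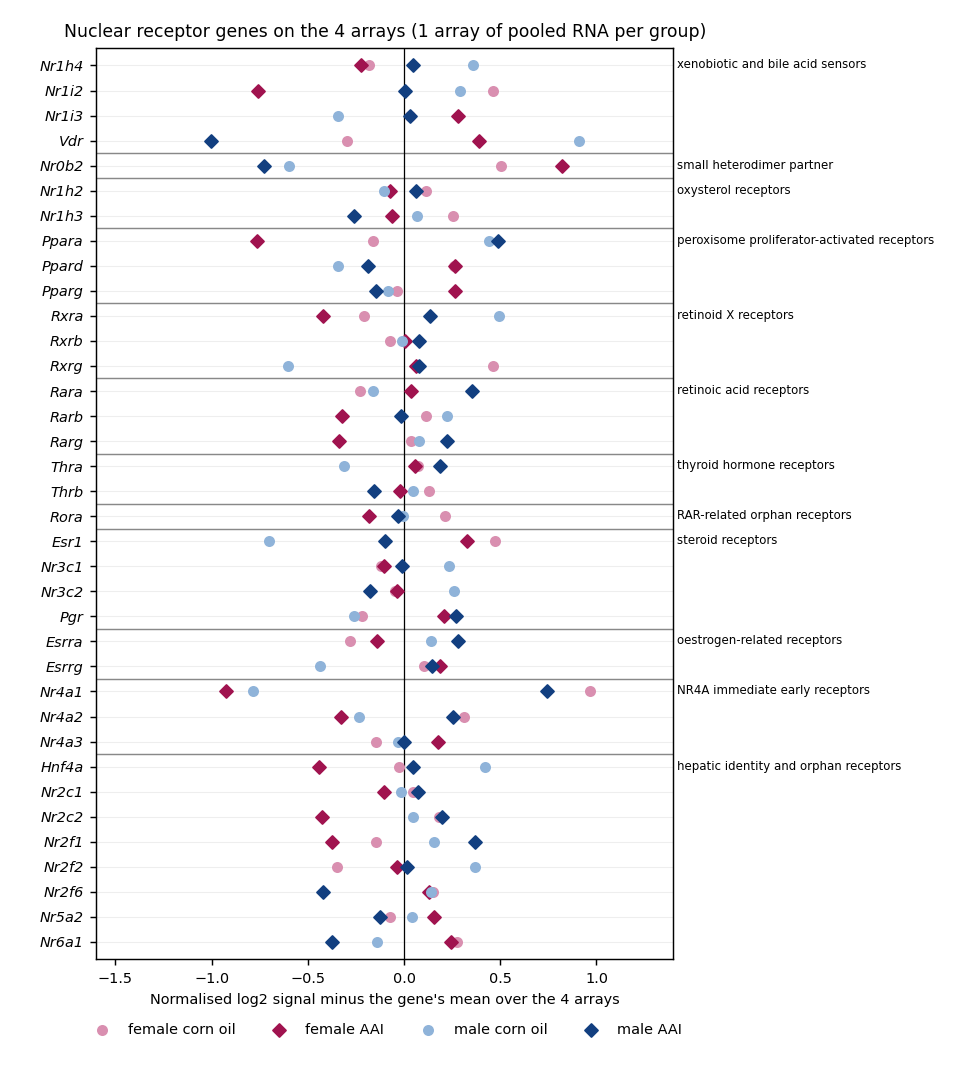
Normalised log2 signal of the brightest probe of each of 36 nuclear receptor genes on the 4 arrays, drawn as the difference from that gene's own mean over the arrays, with genes grouped by receptor class. Each point is 1 array of RNA pooled from 5 mice, without error bars. Nr4a1 spreads widest together with Vdr, and most other genes lie within 0.5 of their mean.

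Nr4a1 (Nur77), the immediate early receptor that is induced by cAMP and stress signals, had a normalised log2 signal of 10.74 in the female corn oil pool, 8.84 in the female AAI pool, 8.98 in the male corn oil pool and 10.51 in the male AAI pool. Female corn oil and male AAI were thus both high, and female AAI and male corn oil both low. The log2 ratio was -1.89 ± 0.20 in females, which is 3.71-fold lower with AAI, and 1.53 ± 0.20 in males, which is 2.89-fold higher. Of all genes compared, 0.30% had a lower ratio in females and 98.6% had a lower ratio in males. A fall of at least 2-fold in females together with a rise of at least 2-fold in males was seen for 30 of 28234 genes measured on every array, and Nr4a1 was the member among them. The array has 1 probe for Nr4a1, at chr15:101105071-101105130 of the mm9 build, so no second probe reads the same gene.

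Nr4a2 (Nurr1), the relative best known from dopamine neurons, had signals of 6.80 in female corn oil, 6.16 in female AAI, 6.26 in male corn oil and 6.74 in male AAI, the same order of high and low pools as Nr4a1. The AAI ratios were -0.64 for females and 0.49 for males, inside the 2-fold threshold. A second Nr4a2 probe gave -0.53 and 1.096. Nr4a3 (Nor1) did not show this order, with signals of 9.53, 9.85, 9.64 and 9.67 in the same pools and ratios of 0.32 in females and 0.03 in males. Another Nr4a3 probe, drawn from a different transcript model, gave -0.34 in females and -1.48 in males, so the readings for Nr4a3 depend on the probe.

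Other immediate early genes give the background to these values. None of the 7 listed genes was at least 2-fold apart in females, where their median log2 ratio was -0.28, and 1 of 7 was at least 2-fold higher in males, where the median was 0.57. Atf3 had -0.80 in females and 0.57 in males, Egr1 had -0.76 and 0.97, and Fos had 0.19 and 1.77. Junb did not change sign between the sexes, with -0.76 and -0.29, though its probes ran from -1.90 to 1.11 in males, and Dusp1 had 0.10 and 0.96. Egr1 signals were 9.27 in female corn oil, 8.50 in female AAI, 8.03 in male corn oil and 9.004 in male AAI. The time of day of liver collection is not given in the sources used here, and clock genes also differed between the pools. Among them, the clock repressor Nr1d1 is itself a nuclear receptor, though outside the list. Its signals were 4.61 in female corn oil, 10.01 in female AAI, 7.90 in male corn oil and 8.49 in male AAI. The part of collection time and clock genes in the NR4A values was not tested.

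The bases just upstream of the NR4A genes are shown because their best known input is a cAMP signal, which acts through the sequence TGACGTCA or its shorter core TGACG. Each sequence is the 250 bases before the annotated start, from RefSeq promoters of build GRCm38.p6, written 5′ to 3′ on the gene's own strand, with every TGACG or its reverse complement CGTCA in capitals. They lie at chr15:101266596-101266845 on the plus strand, chr2:57124004-57124253 on the minus strand and chr4:48045055-48045304 on the plus strand.
Nr4a1: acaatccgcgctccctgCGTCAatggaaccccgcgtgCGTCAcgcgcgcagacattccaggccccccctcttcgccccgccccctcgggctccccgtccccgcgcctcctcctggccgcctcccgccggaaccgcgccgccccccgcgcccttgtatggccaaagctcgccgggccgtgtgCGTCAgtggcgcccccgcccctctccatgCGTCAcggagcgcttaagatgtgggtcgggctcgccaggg
Nr4a2: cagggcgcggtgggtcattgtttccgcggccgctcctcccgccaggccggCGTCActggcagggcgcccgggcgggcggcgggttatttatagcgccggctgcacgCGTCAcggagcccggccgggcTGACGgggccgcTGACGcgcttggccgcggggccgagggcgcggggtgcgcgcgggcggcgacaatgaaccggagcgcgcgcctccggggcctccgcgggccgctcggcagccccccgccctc
Nr4a3: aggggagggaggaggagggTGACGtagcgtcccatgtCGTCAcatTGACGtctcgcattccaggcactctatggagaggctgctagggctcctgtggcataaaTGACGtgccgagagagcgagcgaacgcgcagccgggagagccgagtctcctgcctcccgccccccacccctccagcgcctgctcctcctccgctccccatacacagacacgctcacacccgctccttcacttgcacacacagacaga
Each of the 3 windows holds 4 matches, and in Nr4a1 they begin 233, 213, 69 and 40 bases before the start. Of 32851 RefSeq promoters, 17.8% hold TGACG on either strand, and 10 of 55 promoters of the 35 matched members do, which is 18.2%. The full TGACGTCA was in none of the 55 and in 1.55% of all promoters. A match of letters does not show binding, and no part of these sequences in the signals was tested.

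Among the sensors of foreign chemicals and bile acids, Nr1i2 (PXR) stood out in females. Its signal was 9.98 in female corn oil, 8.76 in female AAI, 9.80 in male corn oil and 9.52 in male AAI, so that the female AAI pool was low and the other pools lay close together. The log2 ratio was -1.22 ± 0.20 in females, or 2.33-fold lower, and -0.28 ± 0.20 in males. Of all genes compared in females, 1.38% had a lower ratio. Nr1i2 had 1 probe, at chr16:38248745-38248804 of mm9. The difference between the male and the female ratio was 0.94, and 11.8% of genes had one larger in size.

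Nr1i3 (CAR), which like PXR controls drug metabolism, had signals of 11.74, 11.99, 11.37 and 11.74 in the female corn oil, female AAI, male corn oil and male AAI pools. AAI against corn oil gave 0.25 for females and 0.38 for males on the log2 scale, with -0.05 and 0.41 from a second probe, all within the 2-fold threshold. Nr1h4 (FXR), the bile acid receptor, had signals of 13.61, 13.57, 14.15 and 13.84 in the same order, with ratios of -0.04 and -0.31. Nr0b2 (SHP), the receptor without a DNA-binding domain that FXR induces to repress bile acid synthesis, had signals of 9.53, 9.85, 8.43 and 8.30, with ratios of 0.32 and -0.13.

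The array sequences behind CAR and SHP are given here because both genes are read in every pool and SHP is one of the members that separate the corn oil pools. Both are printed as deposited, in lower case.
Nr1i3 probe: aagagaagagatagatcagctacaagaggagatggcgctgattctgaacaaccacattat
Nr0b2 probe: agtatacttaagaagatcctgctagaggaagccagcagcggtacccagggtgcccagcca
The first lies at chr1:173147776-173147835 and the second at chr4:133109694-133109753 of mm9, both on the plus strand. Neither was checked for similar sequence elsewhere, since no genome was used here.

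Vdr, the vitamin D receptor, is hardly expressed by hepatocytes and was read near the background. Its signal was 5.45 in female corn oil, 6.13 in female AAI, 6.65 in male corn oil and 4.74 in male AAI, so that the male AAI pool was lowest. The log2 ratio was 0.68 ± 0.26 in females and -1.91 ± 0.36 in males, 3.77-fold lower, with a larger scanner error than any other member that has a ratio. This probe was designed on a cDNA clone, and the probe on the RefSeq transcript was not well above background on any array. With normexp background correction the male ratio was -0.92, so the call depends on how background is removed.

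CAR and PXR share most of their target genes, of which 14 listed ones could be compared. In females 1 was at least 2-fold lower and none higher, with a median log2 ratio of 0.04, and in males 2 were lower and 1 higher, with a median of 0.11. Cyp2b10, the classical CAR target, had signals of 16.04 in female corn oil, 14.80 in female AAI, 9.82 in male corn oil and 14.17 in male AAI. The log2 ratio was therefore -1.23 for female mice and 4.35 for male mice, while male corn oil stood far below the other pools. Cyp3a11, the classical PXR target, had ratios of 0.07 in females and -1.10 in males, and Cyp2c55 had -0.34 and -1.20. Alas1, which starts haem synthesis for cytochromes P450, had -0.90 and -0.87.

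Of 9 FXR target genes, 1 was at least 2-fold lower and 1 higher in females, and 1 was lower in males. Cyp8b1, the sterol 12-alpha-hydroxylase that sets the kind of bile acid made, was lower in both sexes with ratios of -1.495 and -2.59. Its signals were 10.34, 8.85, 9.50 and 6.91 in female corn oil, female AAI, male corn oil and male AAI. Slc51b, a subunit of the basolateral bile acid exporter, was higher in females with 1.501 and had 0.44 in males, and its partner subunit Slc51a had 0.97 and 0.14. Abcb11, the bile salt export pump, had 0.57 and -0.88.

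**Figure D2:**
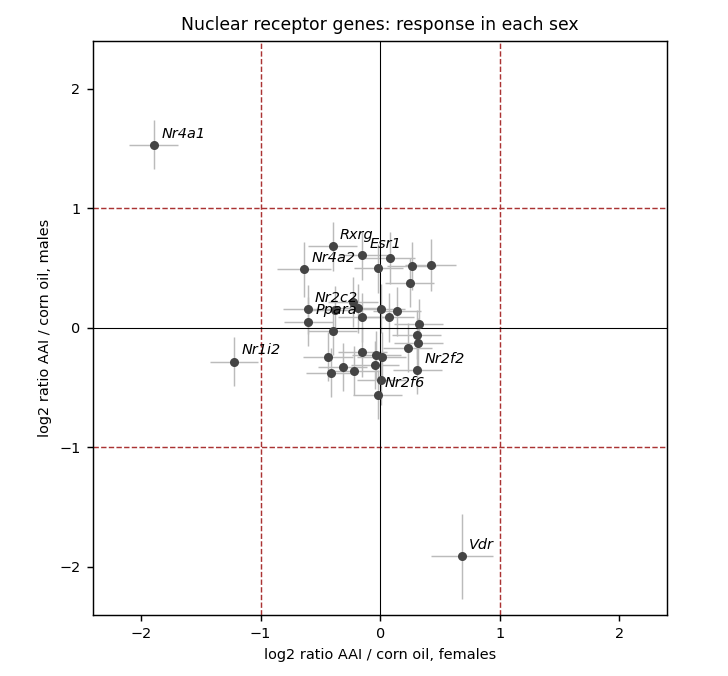
Log2 ratio of AAI to corn oil in females (horizontal) against males (vertical) for 36 nuclear receptor genes, with the scanner error of each ratio as bars and dashed lines at a 2-fold difference. Nr4a1 lies beyond 2-fold in opposite directions in the sexes, Vdr beyond it in males and Nr1i2 in females, and all other members lie inside the dashed square.

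The oxysterol receptors Nr1h2 (LXRbeta) and Nr1h3 (LXRalpha), which raise cholesterol efflux and fatty acid synthesis, had log2 ratios of -0.18 and -0.31 in females and 0.16 and -0.33 in males. None of their 11 listed targets was at least 2-fold apart in females, where the median was 0.25, and in males 1 was lower and 1 higher with a median of 0.29. Srebf1, the regulator of fatty acid synthesis, had 0.77 in females and 0.70 in males. Lpl, the lipoprotein lipase that muscle and fat also express strongly, was higher in males with 1.79 from its brightest probe and 0.21 from its lowest, and Abca1, the cholesterol efflux pump, was lower with -1.02.

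Ppara, the receptor for fatty acids and fibrates, had signals of 12.38 in female corn oil, 11.78 in female AAI, 12.98 in male corn oil and 13.03 in male AAI. Its ratio was -0.60 ± 0.20 in females and 0.05 in males, with -0.69 and -0.36 from a second probe, and neither passed 2-fold. Ppard and Pparg, the latter the fat cell receptor, had 0.00 and 0.31 in females and 0.16 and -0.06 in males. Of 17 PPARalpha targets, 1 was at least 2-fold lower in females, with a median of -0.12, and 1 was higher in males, with a median of -0.44. These were Vnn1, a pantetheinase, with -1.18 in females and -0.88 in males, and Pdk4, which limits glucose oxidation, with -0.11 and 1.93.

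Of the retinoid X receptors, the shared heterodimer partners, Rxra had ratios of -0.22 in females and -0.36 in males, and Rxrb had 0.08 and 0.09. Rxrg, the isoform best known from muscle and brain, had signals of 10.02 in female corn oil, 9.63 in female AAI, 8.96 in male corn oil and 9.64 in male AAI, with ratios of -0.40 and 0.68. Male corn oil was its lowest pool. The retinoic acid receptors Rara, Rarb and Rarg had 0.26, -0.44 and -0.37 in females and 0.51, -0.24 and 0.15 in males. Of 6 retinoic acid targets compared, Cyp26a1, which degrades retinoic acid, was at least 2-fold higher in females with 1.11 and had 0.26 in males.

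The thyroid hormone receptors Thra and Thrb had ratios of -0.01 and -0.15 in females and 0.50 and -0.20 in males. A second Thrb probe gave 0.07 in females and -1.06 in males, and the measured Thra probes ran from -0.31 to 0.73 in males. Among 7 thyroid hormone receptor targets 1 was at least 2-fold lower in females, and 1 lower and 2 higher in males. Dio1, the deiodinase that activates and clears thyroid hormone, was lower in both sexes, with signals of 11.16, 8.87, 11.50 and 10.03 in female corn oil, female AAI, male corn oil and male AAI and ratios of -2.29 and -1.47. Thrsp, a lipogenic protein, had -0.19 in females and 1.28 in males. Rora, an orphan receptor that competes with the clock repressor Nr1d1 for DNA, had -0.40 and -0.03.

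The brightest probes of the steroid receptors were within 2-fold of corn oil in both sexes. Nr3c1, the glucocorticoid receptor, had ratios of 0.01 in females and -0.24 in males, and Nr3c2, the mineralocorticoid receptor, had 0.01 and -0.44, with -0.59 and -1.22 from another probe. Pgr, the progesterone receptor, had 0.42 and 0.53 from its brightest probe, which lies on the opposite strand to its other probes. The other Pgr probe well above background, on a RefSeq transcript, gave -1.31 and -0.40, so the direction for Pgr depends on the probe. Esr1, the oestrogen receptor alpha of hepatocytes, had -0.15 and 0.60, and its 6 measured probes ran from -0.78 to 0.49 in females and from -0.79 to 0.97 in males. The oestrogen-related receptors Esrra and Esrrg, which raise mitochondrial genes, had 0.14 and 0.08 in females and 0.14 and 0.58 in males, and another Esrrg probe gave -1.66 in males.

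Several glucocorticoid receptor targets passed the threshold where the receptor gene did not. Of 12, 4 were at least 2-fold lower in females and 2 were at least 2-fold higher in males, with medians of -0.85 and 0.52. The female median was -0.30 when all probes of a gene were averaged. Mt2, a metallothionein that glucocorticoids and metals induce, had signals of 17.91 in female corn oil, 15.37 in female AAI, 14.53 in male corn oil and 17.70 in male AAI. Female corn oil and male AAI were again the high pools, with ratios of -2.55 and 3.17, and Mt1 had -1.62 and 2.04, although its second probe gave 0.09 in females. Cdkn1a, a cell cycle inhibitor, had -1.08 and 0.89, but its 3 probes ran from -1.08 to 1.01 in females, so its direction there depends on the probe. Tsc22d3 (GILZ), a more specific glucocorticoid target, did not share this order, with -1.55 in females and -0.96 in males.

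Of the receptors that maintain hepatocyte genes, Hnf4a had signals of 15.52 in female corn oil, 15.10 in female AAI, 15.96 in male corn oil and 15.58 in male AAI, with ratios of -0.42 and -0.38. A second, dimmer Hnf4a probe gave -0.96 and -0.27. None of 9 HNF4alpha targets was at least 2-fold apart in either sex, and their medians were 0.10 and -0.32. Nr5a2 (LRH-1), which drives bile acid synthesis genes, had 0.23 and -0.17. The orphan receptors Nr2c1, Nr2c2, Nr2f1 and Nr2f2 had -0.15, -0.61, -0.23 and 0.31 in females and 0.09, 0.15, 0.22 and -0.35 in males. Nr2f6 had -0.02 in females and -0.56 in males, and Nr6a1, the germ cell factor, had -0.03 and -0.23.

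The cofactors that receptors recruit were mostly close to corn oil. None of 9 corepressors was at least 2-fold apart in either sex, with medians of 0.03 and -0.17, and of 12 coactivators 1 was at least 2-fold higher in females and 2 in males, with medians of -0.10 and -0.06. Ppargc1a (PGC-1alpha), the fasting- and cold-induced coactivator of PPARalpha, HNF4alpha and the oestrogen-related receptors, had signals of 9.96 in female corn oil, 9.06 in female AAI, 8.33 in male corn oil and 9.61 in male AAI. Its ratios were -0.90 and 1.29, the high and low pools being those of Nr4a1. Crebbp, an acetyltransferase, had 1.58 and 2.94 from its brightest probe, and another of its probes gave 0.02 and -0.06. Of 16 enzymes that form or clear ligands, 1 was at least 2-fold lower in females, and 4 were lower and 1 higher in males. Cyp7b1, which clears oxysterols and is male-biased in mouse liver, had 0.32 in females and -3.06 in males, and Srd5a1, which makes dihydrotestosterone, had 0.05 and -1.70.

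**Figure D3:**
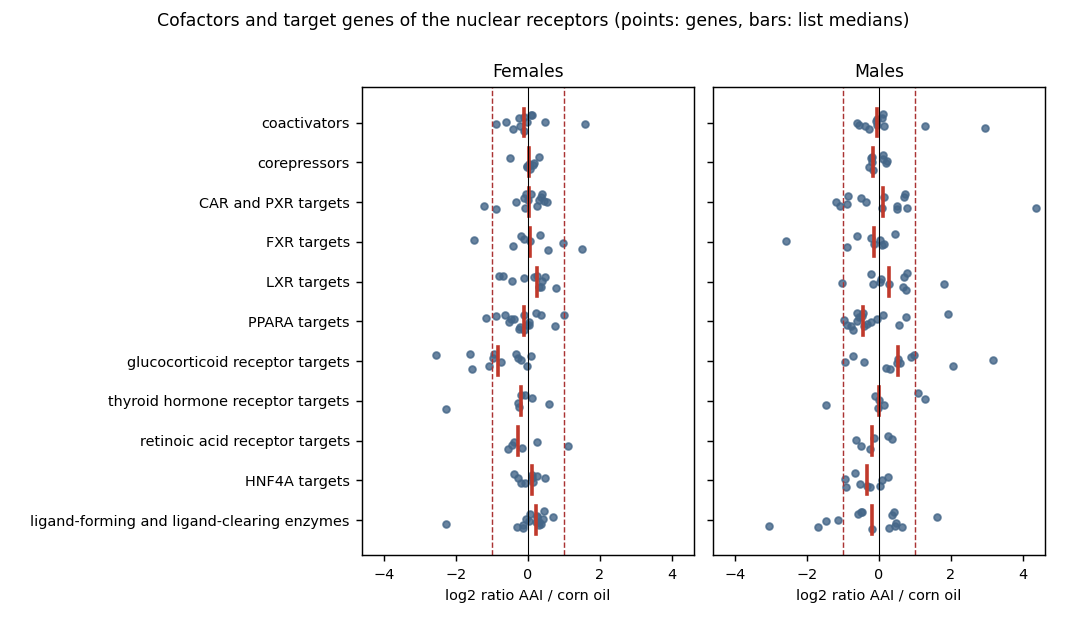
Log2 ratio of AAI to corn oil for the genes of 11 lists of nuclear receptor cofactors, targets and ligand enzymes, in females and males, for probes well above background on both arrays. Each point is a gene, displaced vertically only to be visible, red bars are list medians and dashed lines mark 2-fold. The glucocorticoid receptor targets have a median of -0.85 in females and 0.52 in males from their brightest probes, and the female median is closer to no change when probes are averaged.

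The probes of one member often differed in sign. In each sex 25 members had 2 or more probes well above background on both arrays. All probes of a member had one sign in 10 of these in females and in 12 in males. Their probes spanned at least 1 on the log2 scale in 3 members in females, Esr1, Pgr and Rarb, and in 4 in males, Esr1, Esrrg, Nr4a3 and Thra. The median SD between a member's probes was 0.21 in females and 0.38 in males.

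**Figure D4:**
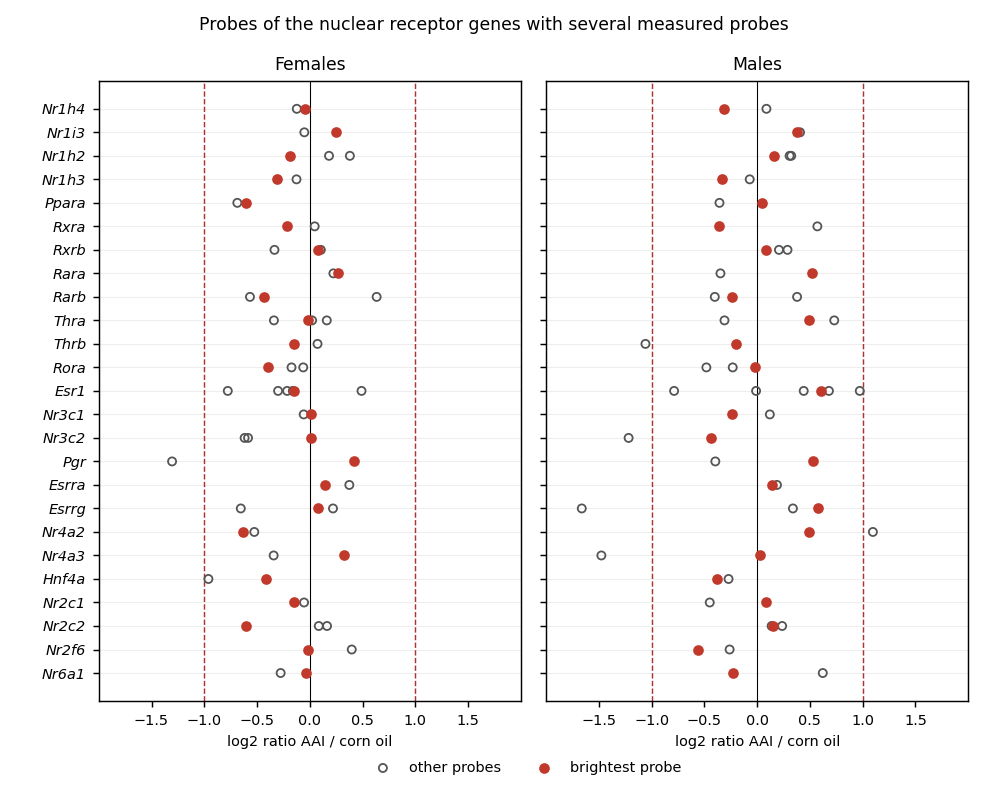
Log2 ratio of AAI to corn oil from every probe well above background on both arrays, for the 25 nuclear receptor genes with several such probes, in females (left) and males (right). Filled points are the brightest probe of a gene, open points its other probes, and dashed lines mark 2-fold. All brightest probes of these genes lie inside the dashed lines, while single dimmer probes of Pgr, Esrrg, Nr3c2, Nr4a2, Nr4a3 and Thrb lie outside in one sex.

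The direction of each member's ratio was compared between the sexes. Of 36 members, 18 had ratios of opposite sign in females and males, which is 50.0%, beside 41.5% of 28234 genes, and nothing particular to the members is read from these shares. By direction, 10 were below 0 in both sexes, 8 above 0 in both, 11 below 0 in females and above in males, and 7 the reverse. The male ratio minus the female ratio was at least 1 in size in 4 members, beside 10.2% of genes. These were Nr4a1 with 3.42, Vdr with -2.60, Nr4a2 with 1.13 and Rxrg with 1.08, and 0.248% of genes had a difference larger in size than that of Nr4a1.

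The 2 corn oil pools differ in sex without AAI. Here 4 members were at least 2-fold lower in males and 1 at least 2-fold higher, against 1.86% of 30891 genes lower and 3.83% higher. This was 13.9% of the 36 members, beside 5.69% of all genes. Esr1 had signals of 10.52 in the female and 9.35 in the male corn oil pool, 2.26-fold lower in males. Nr0b2 was 2.14-fold lower in males with 9.53 and 8.43, Rxrg 2.09-fold lower with 10.02 and 8.96, and Nr4a1 3.37-fold lower with 10.74 and 8.98. Vdr was 2.31-fold higher in males. Only Nr4a1 was past 2-fold under all 8 alternative settings. The 6 measured Esr1 probes gave male minus female values from -1.55 to 0.58. Dimmer probes of Thrb, Nr3c2 and Nr4a3 gave 1.19, 1.02 and 1.04, where their brightest probes gave -0.09, 0.31 and 0.11. The corn oil arrays are the same control arrays against which the AAI pools were read, so a high or low control enters both comparisons.

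Among target genes the corn oil pools were far apart for Cyp2b10 with a male minus female log2 value of -6.22, Cyp7b1 with 4.45, Mt2 with -3.38 and Alas1 with 1.93. Cyp2b10 is known to be higher in female mouse liver, and Cyp7b1 higher in male. Of the CAR and PXR targets 3 were at least 2-fold lower in the male pool and 1 higher.

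Markers of tissues other than liver moved with the pools. Hepatocyte markers were well above background and none of 9 was at least 2-fold apart in either sex. All 12 skeletal muscle markers were at least 2-fold higher in both AAI pools, with a summed linear signal of 1532 in female corn oil, 48918 in female AAI, 6300 in male corn oil and 390698 in male AAI. Brown fat markers summed to 3281, 7033, 2480 and 70153 and adrenal cortex markers to 1028, 1021, 4262 and 46732 in the same order, so both were highest in male AAI. Among 5 brown fat markers compared in females, only Cox8b was at least 2-fold higher, with a log2 ratio of 5.47. In males 5 of 6 were at least 2-fold higher. Ucp1, which defines brown fat, was not well above background in the female pools. It had a log2 signal of 4.98 in male corn oil and 12.89 in male AAI. Star, which starts adrenal steroid synthesis, had 5.74, 5.31, 8.53 and 13.01 in the order above. Of 7 adrenal cortex markers compared in males, 5 were at least 2-fold higher with AAI and 1 was at least 2-fold lower. Cyp11b2 had a log2 ratio of -0.12 there. None of 6 compared in females passed 2-fold. Fat markers summed to 4765, 5883, 8057 and 76053. Of 6 fat markers, 3 were at least 2-fold higher with AAI in females and 4 in males. Plin1 had log2 ratios of -0.67 in females and -0.72 in males, and Lep had 0.08 and -0.06. Leukocyte markers summed to 84687, 39558, 80585 and 51008 and were at least 2-fold lower for 6 of 10 genes in females. Nr4a1, Rxrg, Lpl, Pdk4, Ppargc1a and Esrrg can be expressed in muscle, fat or adrenal, and the part of other tissues in their values was not tested. In such mixed RNA, fewer cells of a type and less RNA per cell cannot be told apart.

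**Figure D5:**
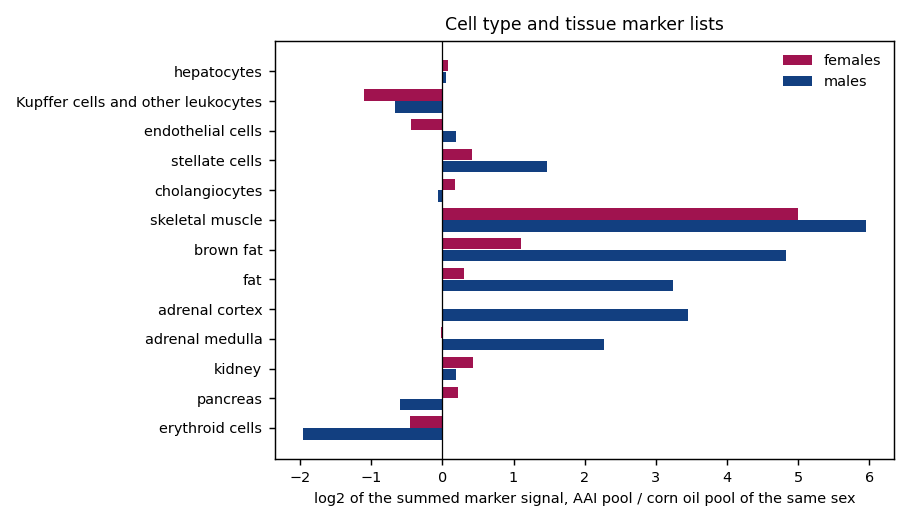
Log2 of the summed signal of each cell type or tissue marker list in the AAI pool over the corn oil pool of the same sex, for females and males, 1 array of pooled RNA each. The hepatocyte sum is close to 0 in both sexes, the skeletal muscle sum is raised in both, and the brown fat, fat and adrenal sums are raised most in males. Quantile normalisation sets the brightest probes by rank, and Alb had 19.12 in both female pools and in male corn oil. The hepatocyte sum therefore cannot show whether hepatocyte content was unchanged.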

How the data were processed

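RNA mixed from 5 mice per group was hybridised by the authors to 4 single-colour Agilent SurePrint G3 Mouse arrays and scanned with Feature Extraction. The deposited scanner files hold a processed intensity per spot, background-subtracted and, on 3 of the 4 arrays, corrected for a multiplicative trend. The exception was the female AAI array, where 93.75% of spots had a processed signal within 1% of the background-subtracted signal. Female ratios therefore set an uncorrected array against a corrected one. Without this correction on any array, 2 members were lower and 0 higher in females. The authors also deposited a table of normalised intensity values, used as an alternative. Control and outlier spots were left out, log2 of the deposited processed intensity was averaged over spots of a probe, and the 4 arrays were quantile normalized over 56495 of 56605 probes with limma 3.58.1 in R 4.3.3, as the study's methods state. Each gene was read from its brightest probe. Calls of higher or lower needed a 2-fold difference and a signal well above background in 1 or both of the pools compared, and no ratio is given where neither was. There was 1 array per group, so no test was made. Between 74.7% and 81.5% of probes were well above background, the median processed signal was between 110 and 129, and no spot was saturated. The number of arrays limits the precision, and other limits were not compared with it. Quantile normalisation assumes equal distributions of signal in all pools. The named genes were all members and, from each other list, up to 3 genes with the largest ratio in each comparison. The members, lists and rules were chosen with earlier results of these data known. The calculation was checked on simulated data, and 8 alternative settings and other thresholds were tried. Promoter sequences are RefSeq's, and probe coordinates are those of the scanner files, with mm9 as the build.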

Additional observations from a re-analysis of the deposited data

Results flagged for a closer look

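In 5 members the ratios were of opposite sign in the sexes, each larger than the median SD between probes of a gene in that sex. Nr4a1 was at -1.89 for females and 1.53 for males on the log2 scale. Vdr had 0.68 and -1.91, from a probe near the background. Nr4a2 had -0.64 and 0.49, Rxrg had -0.40 and 0.68, and Nr2f2 had 0.31 and -0.35. The differences between the sexes were not tested, because each group is 1 array, and sex and AAI dose differ together.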

How the results depend on the processing

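No paired analysis was possible because each group is 1 array. Every member at least 2-fold apart had the same direction under all 8 alternative settings, and no other member passed 2-fold while above background in any. Without the filter on dim probes 2 members were higher in males, the added one, Rorb, being below background on both arrays. In males no member was lower with normexp background correction, and in the corn oil comparison 2 were lower and 0 higher in males with it. Vdr was 0.66 there and -0.92 in males with normexp, while Rxrg and Nr0b2 were -0.98 and -0.90. Averaging all probes gave -0.56 for Esr1 between the corn oil pools. At a 3-fold threshold 1 member was lower in females, 0 were higher in males, and 1 was lower and 0 higher between the corn oil pools. At a 1.5-fold threshold 5 were lower and 1 higher in females, 3 were higher in males, and 5 were lower and 4 higher in males between the corn oil pools. Vdr, 3.77-fold lower with AAI in males, stayed past both of these thresholds. The shares of all genes at these thresholds were not computed, so these counts have no background beside them. Among members within 2-fold, 12 in females, 9 in males and 6 between the corn oil pools changed sign under at least 1 alternative. Over all genes, those lower made up 69.3% of the calls in females, 54.5% with 75th percentile scaling and 57.1% without the filter on dim probes. Calls lower and higher over all genes were 978 and 434 in females, 362 and 148 with normexp, and 1433 and 1078 without that filter. In males they were 1402 and 1071, 695 and 575, and 2240 and 1793. Between the corn oil pools they were 574 and 1184, 238 and 523, and 1253 and 1823. The causes were not tested.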
